A study of Rattus norvegicus with 10 samples.

Results

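A group of 10 well-known targets of the hypoxia-inducible factors outside the glycolytic and angiogenic core was followed in retinas of newborn rats: Ankrd37, Ak4, Ndrg1, Higd1a, Kdm3a, Mxi1, Stc2, Vldlr, Car9 and Car12. These 10 genes were taken by symbol from the 14324 genes named on the array, and a gene with several probe sets was read from the brightest of them on average. All 10 were measured and none was filtered out. Mxi1 had 3 probe sets and the other members 1 each. Retinas were taken at postnatal day 3 from outbred SD (Sprague Dawley) and inbred F344 (Fischer 344) rats, which the design text describes as differing in susceptibility to oxygen-induced retinopathy, a rodent model of the vessel disease of premature infants. Rats in cyclic hyperoxia entered an oxygen chamber within 12 hours of birth and spent alternate periods of 24 hours in 80% and 21% oxygen, while their age-matched controls stayed in room air. The groups were SD in cyclic hyperoxia (2 pools), SD in room air (3 pools), F344 in cyclic hyperoxia (3 pools) and F344 in room air (2 pools). One array was run per pool, and each pool joined RNA of 3 rats from 2 litters, so rats were not measured singly.

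Hypoxia-inducible factors are transcription factors whose alpha subunits are hydroxylated and destroyed when oxygen is plentiful. In low oxygen they persist, pair with a beta subunit and bind the hypoxia response element of their target genes. The newborn rat retina is still largely without vessels, and its physiological hypoxia is known to drive such genes ahead of the growing vascular front. The members act in mitochondria (Ak4, Higd1a), on chromatin and transcription (Kdm3a, Mxi1), outside the cell or at its surface (Stc2, Vldlr, Car9, Car12) or in less well defined roles (Ankrd37, Ndrg1).

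Because the members are grouped by their link to this factor, their promoters were searched for the core of its response element. Windows from 250 bases before to 50 bases after the annotated transcription start were found for 9 members in RefSeq (build GRCr8), with 2 windows for Kdm3a and therefore 10 windows in all. Ndrg1 had no entry. The motifs searched were ACGTG and GCGTG on either strand (CACGT and CACGC when read on the other strand), with overlapping matches counted separately. At least 1 match was present for 8 of the 9 members. By window, 8 of their 10 held at least 1, and 41.6% of all 33469 windows did. The members' windows had a median GC content of 68.0%, against 51.7% over all windows, and the shares were not matched for base content. The 4 windows shown are those of Ankrd37, the member that passed between strains in hyperoxia, of Ak4, the member with the lowest change in SD, of Stc2, which had no match, and of Car12, a dim member with 4 matches. Capitals mark the matches, and each sequence runs 5′ to 3′ in the direction of transcription.
Ankrd37, chr16:53001257-53001556, plus strand: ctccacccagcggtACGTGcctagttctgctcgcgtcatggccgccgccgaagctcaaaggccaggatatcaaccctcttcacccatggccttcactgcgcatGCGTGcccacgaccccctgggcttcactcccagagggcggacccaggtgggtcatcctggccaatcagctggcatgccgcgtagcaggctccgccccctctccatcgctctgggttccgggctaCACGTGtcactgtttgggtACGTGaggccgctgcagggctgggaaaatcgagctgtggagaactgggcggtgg
Ak4, chr5:121154886-121155185, plus strand: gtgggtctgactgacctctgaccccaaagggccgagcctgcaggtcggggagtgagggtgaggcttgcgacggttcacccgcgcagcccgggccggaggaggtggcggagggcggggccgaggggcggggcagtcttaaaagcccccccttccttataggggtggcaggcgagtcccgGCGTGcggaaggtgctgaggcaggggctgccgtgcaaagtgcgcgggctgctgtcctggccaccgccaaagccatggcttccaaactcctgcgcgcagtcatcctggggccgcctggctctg
Stc2, chr10:16755258-16755557, plus strand: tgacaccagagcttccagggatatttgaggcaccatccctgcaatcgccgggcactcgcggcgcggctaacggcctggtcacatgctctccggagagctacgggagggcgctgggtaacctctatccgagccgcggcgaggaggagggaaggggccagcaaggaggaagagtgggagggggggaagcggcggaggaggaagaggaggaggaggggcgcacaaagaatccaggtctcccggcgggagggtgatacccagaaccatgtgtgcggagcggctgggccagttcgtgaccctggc
Car12, chr8:76169565-76169864, plus strand: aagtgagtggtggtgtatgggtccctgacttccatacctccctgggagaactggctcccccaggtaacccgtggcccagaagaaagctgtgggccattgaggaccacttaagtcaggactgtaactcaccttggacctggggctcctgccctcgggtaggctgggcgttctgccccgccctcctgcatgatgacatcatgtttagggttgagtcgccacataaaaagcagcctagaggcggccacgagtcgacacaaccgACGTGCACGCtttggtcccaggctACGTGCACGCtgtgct
Ankrd37 had 5 matches, 2 of them overlapping in 1 palindrome that began at position -23, and 1.52% of all windows held at least 5. The single match of Ak4 began at position -72 from the start. Car12 had 4 matches, all after the start, and 3.46% of all windows held at least 4. A match is a string of letters and not a shown binding site, and the reference sequence is of another rat strain than those studied.

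**Figure D1:**
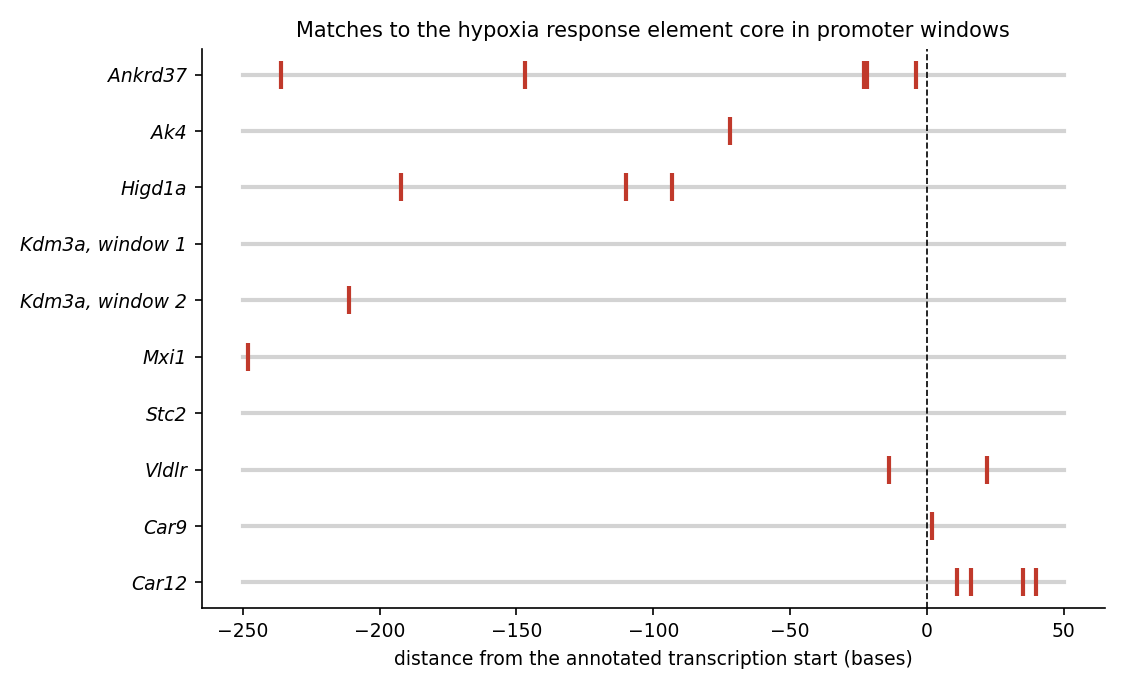
Position of each match to the hypoxia response element core (red ticks) in the promoter windows of 9 members, in bases from the annotated transcription start (dashed line). Grey lines mark the windows, of which Ankrd37 holds 5 matches, Car12 4, Higd1a 3, and Stc2 and the first Kdm3a window 0.

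Expression is given as the deposited log2 values, which have 1 decimal, so a step of 0.1 is the smallest that can be seen and a group with equal values has a standard deviation of 0. Retinal progenitor and Mueller glia markers (10 of 12 measured) averaged 9.95 to 10.35 in the 10 pools and photoreceptor markers (10 of 12) 8.79 to 9.55, against array medians of 5.9 to 6. The arrays numbered 3 of F344 hyperoxia and SD room air stood apart on the first principal component (34.1% of the variance), at 30.08 and 36.41, while the other 8 lay at or below -1.765. The design text says that 1 sample was added to each of these 2 groups after a principal components analysis of the first 8, without giving their numbers. In bulk retina, fewer cells of a type and less RNA per cell cannot be told apart.

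Cyclic hyperoxia was compared with room air within SD first. Here 8 of 10 members lay below 0 (46% of all genes did) and 2 above it (49.4%), with a median log2 change of -0.38 over the members and 0.00 over all genes. In limma, 0 of 10 passed the adjusted threshold of 0.05 (0.0439% of all probe sets passed). An unadjusted p under 0.05 was found in 5 members and in 1628 of all 27342 probe sets. Both hyperoxia pools lay below all 3 room-air pools in 6 members, Ankrd37, Ak4, Higd1a, Kdm3a, Stc2 and Vldlr, a pattern that 7.34% of all genes showed. No member had both hyperoxia pools above all room-air pools, which 6.67% of all genes showed. Without both arrays numbered 3, 7 members lay below 0, 2 above and Car12 at 0, with a median of -0.38. Of all 14324 genes, 5987 lay below 0 and 6144 above in that fit.

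Ak4, an adenylate kinase of the mitochondrial matrix, had the lowest change of the members in SD. It read 6.4 and 6.6 in SD hyperoxia, against 7.5, 7.3 and 7.8 in SD room air. The SD groups were separated by 0.7 at their nearest pools. The log2 change was -1.03 (SE 0.178, 2.05-fold lower, adjusted p = 0.120), and 10 of the 14324 genes had a lower one. Without single arrays in turn it ranged between -1.15 and -0.90, and it did not pass in any of these 10 fits.

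Higd1a encodes a small protein of the inner mitochondrial membrane that acts on the respiratory chain. It stood at 7.8 and 7.9 in SD hyperoxia, against 8.4, 8.5 and 8.1 in SD room air, where pool 3 was the lowest. The change was -0.48 (SE 0.157, adjusted p = 0.815). As for Ak4, the SD groups did not overlap.

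Kdm3a, a histone demethylase that removes a repressive mark, read 10.1 in both SD hyperoxia pools, against 10.6, 10.5 and 10.3 in SD room air. Its change was -0.37 (SE 0.162, adjusted p = 0.815), with no overlap of the groups. Mxi1 encodes a partner of Max that opposes Myc. It read 10 and 10.1 in SD hyperoxia, against 10.3, 10.3 and 10 in SD room air, and the groups overlapped through pool 3 of room air. The change was -0.15 (SE 0.127) by this probe set, and its other 2 probe sets stood at -0.17 (SE 0.105) and -0.22 (SE 0.0988), all with an adjusted p above 0.05. By the probe set at -0.22 the SD groups did not overlap, with 9.3 and 9.4 in hyperoxia against 9.6, 9.6 and 9.5 in room air.

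Stc2, a secreted glycoprotein of the stanniocalcin family, read 5.5 and 5.6 in SD hyperoxia, against 6, 6.2 and 6 in SD room air. The groups did not overlap, and the change was -0.52 (SE 0.167, adjusted p = 0.815). Vldlr is a receptor for reelin and for triglyceride-rich lipoproteins, and mice that lack it grow vessels into the photoreceptor layer. It read 8.7 and 9 in SD hyperoxia, against 9.4, 9.3 and 9.1 in SD room air, a gap of 0.1 between the nearest pools. Its change was -0.42 (SE 0.156, adjusted p = 0.815).

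Ankrd37, which encodes an ankyrin-repeat protein, read 6.4 in both SD hyperoxia pools, against 6.7, 6.7 and 7 in SD room air. The groups did not overlap, and the change was -0.40 (SE 0.189, adjusted p = 0.815). Ndrg1, whose protein is linked to stress and differentiation, read 10.9 in both SD hyperoxia pools, inside the room-air range of 10.6, 11 and 10.8. Its change of 0.10 (SE 0.122, adjusted p = 0.874) thus did not exceed the spread between room-air pools.

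Car9 and Car12 encode carbonic anhydrases of the cell surface that hydrate carbon dioxide outside the cell. Car9 read 5.5 in both SD hyperoxia pools, against 5.2, 5.6 and 5.2 in SD room air. Car12 read 5 and 5.1 in SD hyperoxia, against 5.1, 5 and 5.2 in SD room air. Both genes overlapped between the groups, with changes of 0.17 (SE 0.136) and -0.05 (SE 0.108). They were the only members below the array median in all 10 pools (Stc2 was in 5), and whether their signal exceeded background was not analysed here.

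**Figure D2:**
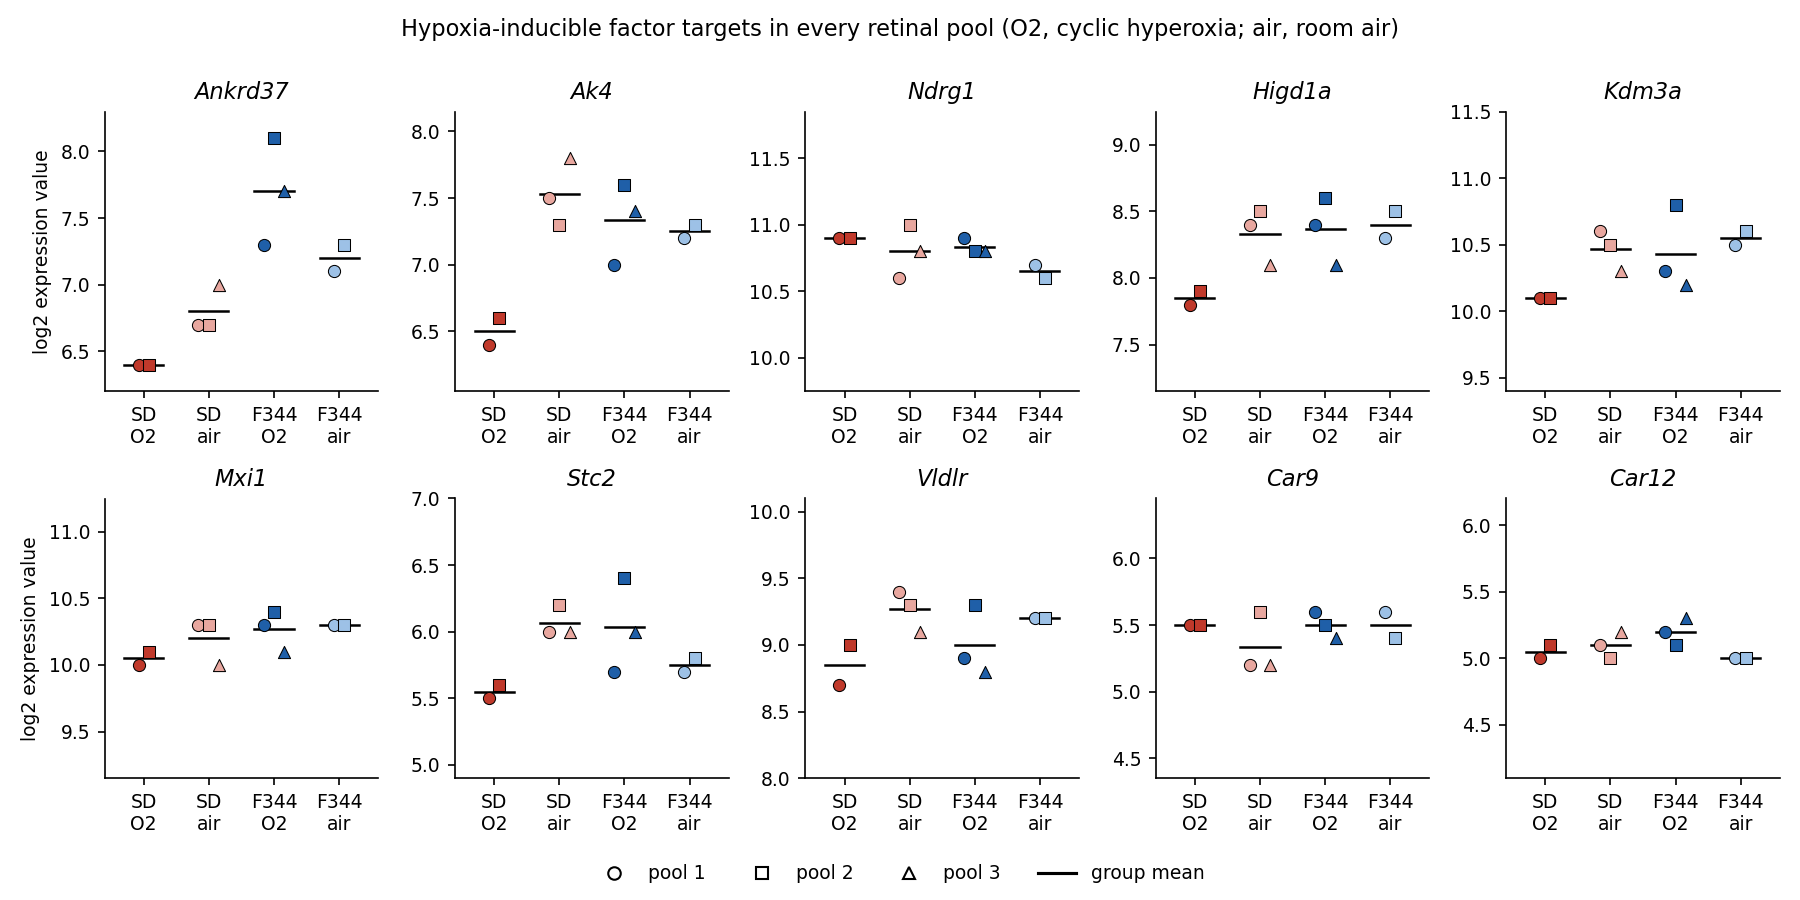
Log2 expression value of each member in every pool, by group (SD hyperoxia, SD room air, F344 hyperoxia, F344 room air), with symbols for the pool number and lines for the group mean; each panel spans the same number of log2 units. SD hyperoxia pools lie below all SD room-air pools for Ankrd37, Ak4, Higd1a, Kdm3a, Stc2 and Vldlr, and F344 hyperoxia pool 2 is the highest of its group in 7 members.

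Markers of other cell types lay on either side of 0 in SD hyperoxia. Of 93 measured markers 0 passed in limma in SD and 0 in F344. An unadjusted p under 0.05 was found in 14 of them in SD and in 20 in F344. Over all 27342 probe sets the counts were 1628 and 1320. All 8 measured endothelial markers were below 0 (median -0.37), their mean level lying between 5.06 and 5.18 in SD hyperoxia and between 5.34 and 5.74 in SD room air. All 7 pericyte markers were below 0 (median -0.27), with a mean between 5.44 and 5.57 in SD hyperoxia and between 5.69 and 5.91 in SD room air. Of 9 ganglion cell markers 7 were below 0 (median -0.23), with a mean between 8.21 and 8.26 in SD hyperoxia and between 8.32 and 8.63 in SD room air. The 5 measured lens markers were all below 0 (median -0.28), but their mean of 5.46 to 5.48 in SD hyperoxia lay within the room-air range of 5.22 to 6.56. Below 0 in SD were also 7 of 10 photoreceptor markers (median -0.025) and 5 of 6 astrocyte markers (-0.09). The same held for 5 of 8 microglia markers (-0.10) and 3 of 4 erythroid markers (-0.05). In the other direction, 7 of 8 cell cycle genes (median 0.21), 8 of 10 progenitor and Mueller glia markers (0.05), 6 of 10 amacrine and horizontal cell markers (0.10) and 5 of 8 pigment epithelium markers (0.07) were above 0 in SD. Endothelial and pericyte markers were also below 0 in F344 hyperoxia (8 of 8 and 6 of 7, medians -0.37 and -0.28), where the median of the members was 0.04. Photoreceptor markers were above 0 in 10 of 10 in F344 hyperoxia (median 0.30). Their part in the members' values was not tested.

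The same exposure was then compared with room air within F344. Of the 10 members 4 lay below 0, 5 above 0 and Car9 at 0, with a median of 0.04 (-0.03 without F344 hyperoxia pool 2), while 48.2% of all genes lay below and 47.1% above 0. In limma, 0 of 10 passed (0.00366% of probe sets passed). Of the members 1, Ankrd37, had an unadjusted p under 0.05, and of all 27342 probe sets 1320 did. No member had all hyperoxia pools below both room-air pools (6.32% of all genes did), and 2, Ndrg1 and Car12, had all of them above (6.6% of all genes did). Without both arrays numbered 3, 1 member lay below 0, 8 above and Kdm3a at 0, with a median of 0.08. Of all 14324 genes, 5888 lay below 0 and 6155 above in that fit.

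Ankrd37 had the highest change of the members in F344. It read 7.3, 8.1 and 7.7 in F344 hyperoxia, against 7.1 and 7.3 in F344 room air, so that pool 1 only equalled the higher room-air pool. The change was 0.50 (SE 0.189, adjusted p = 0.921). Stc2 read 5.7, 6.4 and 6 in F344 hyperoxia, against 5.7 and 5.8 in F344 room air, with a change of 0.28 (SE 0.167). Its pool 1 lay within the room-air values.

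Ak4, the lowest member in SD, read 7, 7.6 and 7.4 in F344 hyperoxia, against 7.2 and 7.3 in F344 room air. The groups overlapped, and the change was 0.08 (SE 0.178). Higd1a read 8.4, 8.6 and 8.1 in F344 hyperoxia, against 8.3 and 8.5 in F344 room air, with a change of -0.03 (SE 0.157). Both room-air values lay inside the range of the hyperoxia pools for these 2 mitochondrial genes.

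Kdm3a read 10.3, 10.8 and 10.2 in F344 hyperoxia, against 10.5 and 10.6 in F344 room air (change -0.12, SE 0.162). Vldlr read 8.9, 9.3 and 8.8 in F344 hyperoxia, against 9.2 in both F344 room-air pools (change -0.20, SE 0.156). In both genes pools 1 and 3 lay below room air and pool 2 above it. Mxi1 stood between 10.1 and 10.4 in F344 hyperoxia and at 10.3 in both room-air pools (change -0.03, SE 0.127). Ndrg1 read 10.9, 10.8 and 10.8 in F344 hyperoxia, against 10.7 and 10.6 in F344 room air (change 0.18, SE 0.122). Car12 read 5.2, 5.1 and 5.3 in F344 hyperoxia, against 5 in both F344 room-air pools (change 0.20, SE 0.108), and Car9 stood between 5.4 and 5.6 in both groups.

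**Figure D3:**
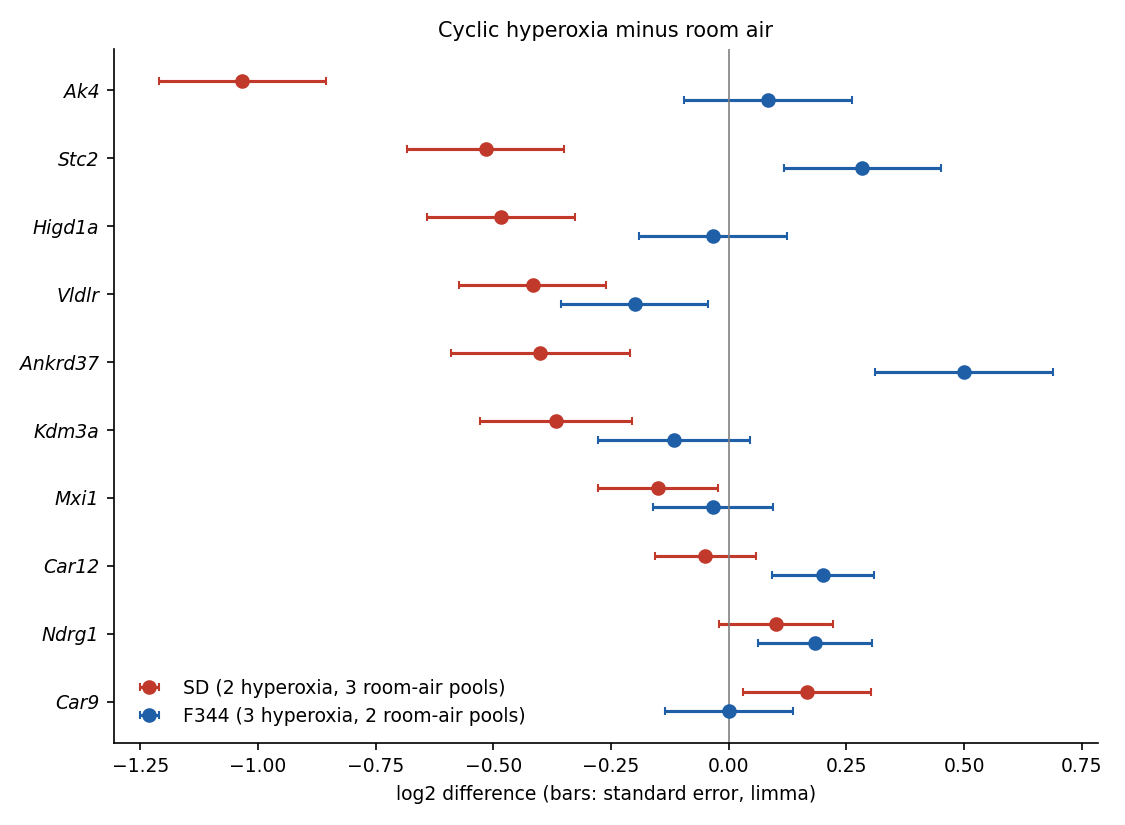
Log2 change of each member, cyclic hyperoxia minus room air, in SD (red, drawn above) and F344 (blue), with standard errors from limma, sorted by the change in SD. Ak4 stands at -1.03 in SD and 0.08 in F344, and Ankrd37 at -0.40 in SD and 0.50 in F344.

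The pools of F344 hyperoxia were not alike. Pool 2 was the highest of the 3 in 7 members (Ankrd37, Ak4, Higd1a, Kdm3a, Mxi1, Stc2 and Vldlr), a position it held in 25.6% of all genes and in 36 of 56 other measured targets of the factor. It was the lowest of the 3 in 21.7% of all genes. Its excess over the mean of pools 1 and 3 was 0.60 in Ankrd37, 0.55 in Kdm3a and Stc2, 0.45 in Vldlr, 0.40 in Ak4, 0.35 in Higd1a and 0.20 in Mxi1. Set against the average of F344 room air, pool 2 had 9 members above 0 and 0 below. In pool 1 the counts were 4 above and 4 below, and in pool 3, 5 and 5. Both SD hyperoxia pools were alike in this respect, with 8 and 7 members below the SD room-air mean (medians -0.38 and -0.32). The same counts per pool were not taken over all genes, so they do not set the members apart from other genes.

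**Figure D4:**
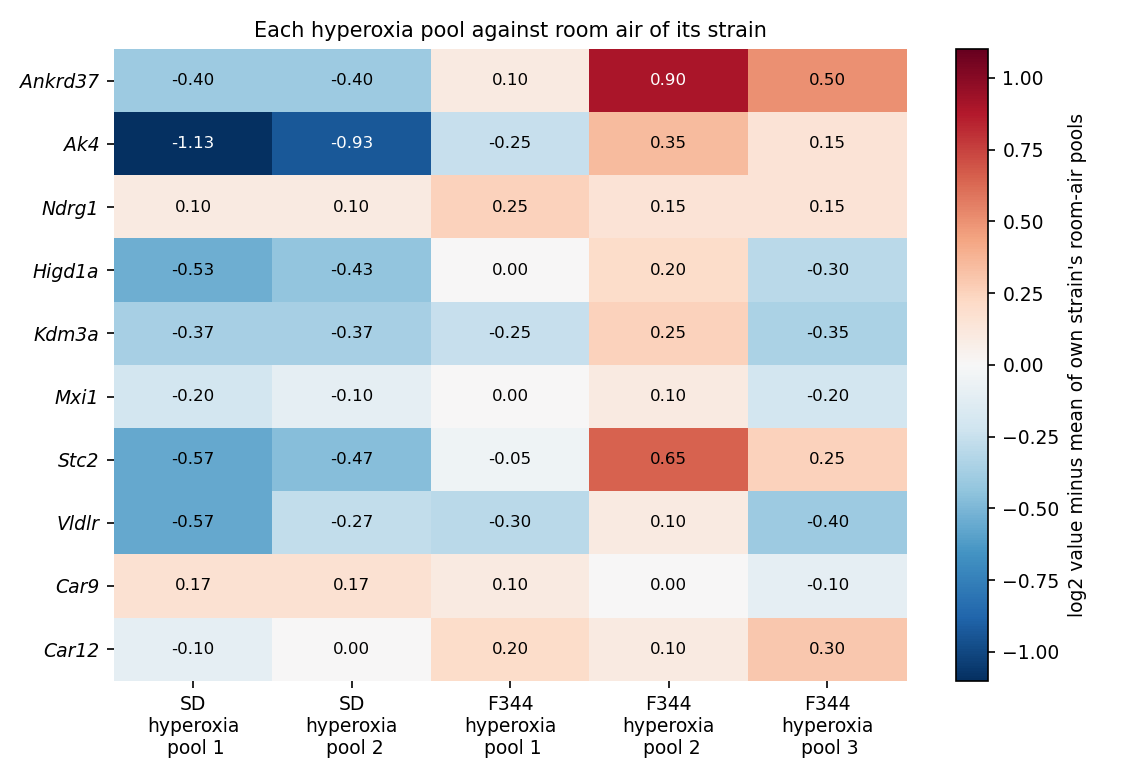
Log2 value of each member in each hyperoxia pool minus the mean of the room-air pools of its strain, with the number in each cell and colour from blue (below) to red (above). SD pools are below 0 in 7 or 8 members, and F344 pool 2 is above 0 in 9. Counts per pool were not taken over all genes.

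The hyperoxia effect in SD was next set against that in F344, as SD minus F344 of the effects. Of the members 9 lay below 0 (46.2% of all genes did) and 1, Car9, above, with a median of -0.25 against 0.02 for all genes. In limma, 0 of 10 passed, as did 0% of all probe sets. An unadjusted p under 0.05 was found in 2054 of 27342 probe sets and in 3 members. These were Ak4 at -1.12 (SE 0.252), Ankrd37 at -0.90 (SE 0.268) and Stc2 at -0.80 (SE 0.236), each with an adjusted p of 0.651. The next was Higd1a at -0.45 (SE 0.223). The median was -0.43 without both arrays numbered 3, and also with a model term for them. Ankrd37 had both SD hyperoxia pools below, and all 3 F344 hyperoxia pools above, the room-air mean of their own strain, as did 7.3% of all genes.

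Averaged over both strains, 6 members lay below 0 and 4 above (46% and 50.3% of all genes), with a median of -0.10. In limma, 0 of 10 passed (0.0402% of probe sets passed). An unadjusted p under 0.05 was found in 1115 of 27342 probe sets and in 3 members. These were Ak4 at -0.48 (SE 0.126, adjusted p = 0.723), Vldlr at -0.31 (SE 0.11, adjusted p = 0.990) and Higd1a at -0.26 (SE 0.111, adjusted p = 0.990). Higd1a, Kdm3a, Mxi1 and Vldlr lay below 0 in each strain, with Higd1a and Mxi1 only at -0.03 in F344. Ak4, Stc2, Ankrd37 and Car12 did so in SD alone.

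The strains were also set against each other within each exposure. These comparisons use the same arrays as those above. In cyclic hyperoxia, Ankrd37 was lower in SD than in F344, and it was the only member that passed (0.457% of probe sets passed in either direction and 0.205% as lower). It read 6.4 in both SD pools, against 7.3, 8.1 and 7.7 in the F344 pools, so that the nearest pools were 0.9 apart. The log2 difference was -1.30 (SE 0.189, 2.46-fold lower, adjusted p = 0.00781 by limma), and 8 of 14324 genes had a lower one. The difference ranged between -1.5 and -1.1 without single arrays and passed in 8 of 10 such fits. It did not pass without SD hyperoxia pool 1 (adjusted p = 0.193) or pool 2 (0.153), where the remaining SD pool is assumed to vary like the other groups. Nor did it pass without both arrays numbered 3 (-1.30, adjusted p = 0.0768) or with only the 5 pools compared (-1.30, adjusted p = 0.412).

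Of the other members in hyperoxia, 7 lay below 0 in SD minus F344, Ndrg1 lay above it and Car9 at it (47.3% of all genes lay below 0 and 48.5% above). The median over all 10 was -0.28, and -0.18 without F344 hyperoxia pool 2. Ak4 was at -0.83 (SE 0.178, adjusted p = 0.0850), Higd1a at -0.52 (SE 0.157, adjusted p = 0.377), Stc2 at -0.48 (SE 0.167, adjusted p = 0.505) and Kdm3a at -0.33 (SE 0.162, adjusted p = 0.771). Without F344 hyperoxia pool 2, Kdm3a was at -0.15. Together with Ankrd37, these 5 had both SD pools below all 3 F344 pools, which 7.34% of all genes showed. In no member did both lie above them, as in 8.04% of all genes. Mxi1 overlapped between the strains by its brightest probe set. By its other probe sets both SD pools lay below all 3 F344 pools (-0.23, SE 0.105, and -0.22, SE 0.0988, each with an adjusted p of 0.745 by limma). Ak4 passed without F344 hyperoxia pool 1 (-1, adjusted p = 0.0364) and without SD room-air pool 3 (-0.83, adjusted p = 0.0474). Higd1a passed with a term for the arrays numbered 3 (-0.64, adjusted p = 0.0121).

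In room air SD minus F344 had 5 members below 0, 5 above (49.6% and 46.7% of all genes) and a median of 0.00. In limma, 0 of 10 passed (0.556% of probe sets passed). An unadjusted p under 0.05 was found in 0 members and in 3127 of 27342 probe sets. Ankrd37 read 6.7, 6.7 and 7 in SD, against 7.1 and 7.3 in F344, a difference of -0.40 (SE 0.189, adjusted p = 0.450) without overlap of the pools. Stc2 was separated the other way, at 6, 6.2 and 6 in SD and 5.7 and 5.8 in F344 (0.32, SE 0.167, adjusted p = 0.503). Pools were separated downwards in 9.93% and upwards in 10.8% of all genes.

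**Figure D5:**
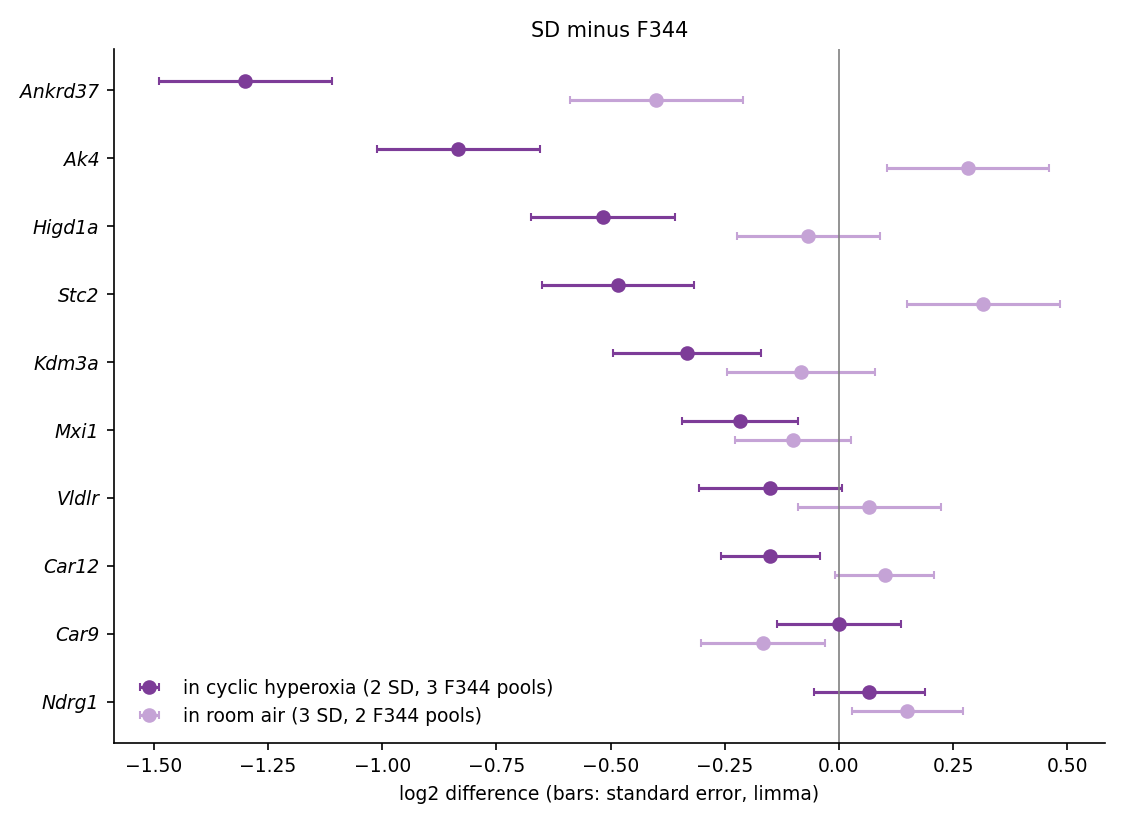
Log2 difference of each member, SD minus F344, in cyclic hyperoxia (dark, drawn above) and in room air (light), with standard errors from limma. In hyperoxia Ankrd37 stands at -1.30 and Ak4 at -0.83, and in room air Ankrd37 stands at -0.40 and Ak4 at 0.28.

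The order of the 4 group means, given ± standard deviation, was read for the 3 members with the lowest differences of effect. The means of Ankrd37 ran upwards from SD hyperoxia (6.4 ± 0, n = 2) through SD room air (6.80 ± 0.17, n = 3) and F344 room air (7.20 ± 0.14, n = 2) to F344 hyperoxia (7.70 ± 0.40, n = 3). Only the F344 neighbours touched, at 7.3. For Ak4, SD hyperoxia (6.50 ± 0.14) stood alone at the bottom. F344 room air (7.25 ± 0.07), F344 hyperoxia (7.33 ± 0.31) and SD room air (7.53 ± 0.25) followed it with overlapping or touching pools. For Stc2 the order was SD hyperoxia (5.55 ± 0.07), F344 room air (5.75 ± 0.07), F344 hyperoxia (6.03 ± 0.35) and SD room air (6.07 ± 0.12), with overlap between the upper 2 groups and between both F344 groups. For Higd1a and Kdm3a SD hyperoxia was likewise the lowest group, and the other 3 groups overlapped.

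The mean of the 10 members, each centred on its own mean, correlated over the 10 pools with Higd1a (Pearson r = 0.884), Stc2 (0.869), Kdm3a (0.848), Ak4 (0.812), Ankrd37 (0.795), Mxi1 (0.740) and Vldlr (0.654), each of which is part of that mean, so that these values are partly built in. The values were 0.148 for Car12, -0.0301 for Car9 and -0.258 for Ndrg1. The closest pair was Higd1a and Mxi1 (r = 0.915), followed by Higd1a and Kdm3a (0.902). Over the 21 pairs of the 7 members named first, r lay between 0.127 (Ankrd37 and Vldlr) and 0.915, with a median of 0.614. These 7 are the members closest to the members' mean in the same pools, so their pair values are partly built in too. Over the pairs that include Ndrg1, Car9 or Car12, r lay between -0.515 (Ak4 and Car9) and 0.552 (Ndrg1 and Car9). These are descriptions over 10 pools that share strain, exposure and the offset of the arrays numbered 3.

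Among genes that are not members, the 5 closest to that mean were Pfkfb3 (r = 0.951), Srek1ip1 (0.941), Rasal1 (0.922), Rnf113a1 (0.915) and Jmjd6 (0.909). Pfkfb3 and Jmjd6 are among the other listed targets of the factor. Rasal1 read only 4.6 to 5, below the array medians, and whether its signal exceeded background was not analysed. Pfkfb3 read 7 and 7.2 in SD hyperoxia, against 8.6, 8.6 and 8.3 in SD room air, and 7.9, 9 and 8.2 in F344 hyperoxia, against 8.2 in both F344 room-air pools. Like 7 of the members, Pfkfb3 was highest in pool 2 of F344 hyperoxia. This peak and the low SD hyperoxia values are partly built in, since the members' mean that picked Pfkfb3 has both. In hyperoxia Pfkfb3 was lower in SD than in F344 (-1.27, SE 0.241, adjusted p = 0.0442 by limma). It passed in 3 of 10 fits without single arrays, those without F344 hyperoxia pool 1, F344 hyperoxia pool 2 or SD room-air pool 3, with adjusted p between 0.0205 and 0.667 over all 10. It did not pass without both arrays numbered 3 (0.183) or with only the 5 pools compared (0.573).

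The wider set of targets of the factor, 56 measured of 60 listed, gave 6 that passed as lower and 0 as higher in SD (Slc16a3, Bnip3, Cox4i2, Pdk1, Fam162a and Mif), and 51 below 0, with a median of -0.43. Over all probe sets 0.0402% passed as lower, and 46% of all genes lay below 0. The count of 6 was 12 with a term for the arrays numbered 3 and 0 without both of them or with only the 5 pools compared. Leaving out either pool of SD hyperoxia also gave 0, as did leaving out pool 2 of SD room air. Only Cox4i2 passed when pool 1 of SD room air was left out, and 3 targets passed when either pool of F344 room air was. In F344, 0 passed in limma, and 17 of 56 had an unadjusted p under 0.05 (1320 of all 27342 probe sets did). Of the 56, 42 lay below 0 and the median was -0.18, where the 10 members had a median of 0.04. The lowest in SD were the lactate exporter Slc16a3 at -1.98 (SE 0.243, adjusted p = 0.0149) and the mitophagy receptor Bnip3 at -1.60 (SE 0.214, adjusted p = 0.0266). The highest were Kdm4c, another histone demethylase, at 0.25 and, tied at 0.02, the collagen-modifying enzyme Plod1 and the glycolytic enzyme Eno1, none of which passed.

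Of 56 measured relatives, partners and stress-response genes, 0 passed for exposure in SD and 0 in F344 in limma. In each strain 4 had an unadjusted p under 0.05. Of all 27342 probe sets 1628 did in SD and 1320 in F344. Stc1, Kdm4b, Kdm4c and Ddit4 belong both to this set and to the other targets above, so the sets are not separate. Stc1, the other stanniocalcin, read 5.6 and 5.4 in SD hyperoxia, against 6.2, 6.1 and 5.4 in SD room air, with overlap (-0.40, SE 0.263). Ndrg2 read 8.9 and 8.8 in SD hyperoxia, against 9.2, 9.4 and 9.5 in SD room air (-0.52, SE 0.152), a separation that Ndrg1 lacked. Ndrg3 stood at 0.00 and Ndrg4 at -0.10 (SE 0.125). The 5 measured kinases related to Ak4 all lay below 0 in SD, between Cmpk1 at -0.33 (SE 0.198) and Ak8 at -0.05 (SE 0.122), with a median of -0.12. None of them was as low as Ak4. Higd2a stood at -0.18 (SE 0.24) and Higd1b at 0.05 (SE 0.122), both above the -0.48 of Higd1a. Higd1b (4.7 to 5.1) and Ak8 (4.5 to 4.8) read below the array medians, and whether their signal exceeded background was not analysed.

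Of 7 measured histone demethylases related to Kdm3a, 1 lay below 0 in SD, Kdm4b at -0.23 (SE 0.147), and the median was 0.12. Of 8 genes of the Max network around Mxi1, 7 lay below 0 in SD and 0 in F344, with Max itself at -0.23 (SE 0.216) in SD. Of 4 measured genes of reelin and lipoprotein signalling around Vldlr, 3 lay above 0 in SD, among them the ligand gene Reln at 0.17 (SE 0.142).

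Of 13 carbonic anhydrase genes other than Car9 and Car12, 5 lay below and 5 above 0 in SD, between Car11 at -0.17 (SE 0.138) and Car7 at 0.18 (SE 0.117). Car8, whose protein lacks the enzyme activity, read 7.1 and 6.9 in SD hyperoxia, against 6, 6 and 6.4 in F344 hyperoxia, and was higher in SD (0.87, SE 0.137, adjusted p = 0.0129). In room air it read 7, 6.9 and 7.1 in SD, against 5.8 and 5.7 in F344, and was higher in SD too (1.25, SE 0.137, adjusted p = 0.000934). The hyperoxia difference did not pass without F344 hyperoxia pool 1 (adjusted p = 0.0755) or pool 2 (0.0647), without SD hyperoxia pool 1 (0.360) or pool 2 (0.112), or with only the 5 pools compared (0.412), whereas the room-air difference passed in all 10 fits without single arrays. Stc2 and Vldlr are also known targets of the integrated stress response, and 13 of 14 listed genes of that response were measured. In SD 7 of them lay below 0 and 6 above, between Atf3 at -0.37 (SE 0.103) and the cystine transporter Slc7a11 at 0.50 (SE 0.198). Atf3 (4.9 to 5.4) and Car7 (4.4 to 4.8) read below the array medians, and whether their signal exceeded background was not analysed.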

How the data were processed

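The deposited log2 values per probe set (27342 probe sets, 10 arrays, Affymetrix whole-transcript labelling per the labels' protocols) were used as they stand. The submitters' processing notes list RMA and Partek 6.4 without saying which step each did, and background correction and scaling remain not given here. Precision is limited by having 10 arrays. The platform annotation gave 15097 probe sets 1 gene symbol, and entrez identifiers led to current symbols.

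One limma 3.58.1 model (R 4.3.3) with a mean per strain and exposure was fitted to all probe sets and arrays (6 residual degrees of freedom), with eBayes, two-sided tests and Benjamini-Hochberg adjustment over all probe sets. The method was tested on simulated data with independent noise, which lacked the offset of the arrays numbered 3. The members and gene lists were chosen with earlier results of these data known. The named genes were all members, listed relatives and targets that passed or had the 2 lowest or 2 highest changes in SD, and the 5 genes closest to the members' mean. Others were chosen after their values were seen. Alternatives were a term for the arrays numbered 3, leaving out arrays, a replicate block, a brightness filter, trend and robust eBayes, quantile normalization, only the groups compared, and probe-set means. P-values measure the spread between pools.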

Additional observations from a re-analysis of the deposited data

Results flagged for a closer look

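In Ankrd37 the hyperoxia pools of the strains lay on opposite sides of the room-air mean of their own strain. Both SD hyperoxia pools were 0.40 below it, and the F344 hyperoxia pools were 0.10, 0.90 and 0.50 above it. The difference of the hyperoxia effects, SD minus F344, was -0.90 (SE 0.268) and did not pass in limma (adjusted p = 0.651). Of all genes, 7.3% showed the same arrangement, with SD below and F344 above. The reverse arrangement is not part of that share. Ankrd37 was the only member with either arrangement, and a single member does not set the members apart from all genes. Single outlying pools were not tested, since the groups held 2 or 3 pools.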

How the results depend on the processing

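Most values kept their direction and their side of the threshold. Apart from the brightness filter, the cause of the exceptions was not tested. In SD minus F344 in hyperoxia, where 1 member passed, the count was 2 with the term for the arrays numbered 3 and with the replicate block (Ankrd37 and Higd1a), 0 without both arrays numbered 3 and 0 with only the groups compared, where fewer arrays entered, and 0 to 2 over the fits without single arrays. The median difference of the hyperoxia effects was -0.43 with the term, without both of those arrays and with the replicate block, against -0.25. The median of the averaged effect was -0.24 over the 7 members among the brighter probe sets, against -0.10 over all members. These medians cover different members, since the filter drops dim probe sets and leaves the changes of the others as they are. No other count of members passing changed.

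Signs turned only for values close to 0, none of which passed. Higd1a in F344 was 0.0917 with the term, 0.0917 with the block and 0.1 without both arrays (-0.15 to 0.1 without single arrays). Mxi1 in F344 was 0.0583, 0.0583 and 0.05 (-0.1 to 0.05). Higd1a in SD minus F344 in room air was 0.0583, 0.0583 and 0.05 (-0.167 to 0.05), and Kdm3a there was 0.0167 with the term and the block. Without single arrays, Ak4 in F344 ranged between -0.05 and 0.25, Ankrd37 averaged over strains between -0.05 and 0.15, and Ndrg1 in the difference of effects between -0.183 and 0.0167.

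The replicate block was an alternative only: over 13 pairs of same-numbered pools the correlation of deviations lay between -0.0733 and 0.643, above 0.1 in 4, of which 3 (0.314, 0.397 and 0.643) joined F344 hyperoxia with SD room air, groups not compared with each other. Deviations from a group mean cancel out within the group, so the 13 correlations are not separate and cannot decide whether pools were paired. No pairing was assumed. Under the block Higd1a in SD minus F344 in hyperoxia was -0.64 (adjusted p = 0.0078, against 0.377). The brightness filter removed Stc2, Car9 and Car12. Fitting only the groups compared gave no separate value for the difference and the average of effects, which already use all groups.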
